A study of Mus musculus with 6 samples.

Results

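The interleukin 1 (IL-1) family and inflammasome genes described here are 9 genes picked by symbol from the 24421 genes of the count table: the agonists Il1a, Il1b and Il18, the receptor antagonist Il1rn, the signalling receptor Il1r1, the decoy receptor Il1r2, the sensor Nlrp3, the adaptor Pycard and the protease Casp1. All 9 had a row and passed the filter on low counts. They were read in 6 RNA libraries of femoral bone marrow from C57BL/6 mice of genotype Dek -/-, which lack the chromatin protein DEK. The marrow had been depleted of lineage-marked mature cells and treated with vehicle in 3 libraries and with DEK protein in 3, numbered 1 to 3 in each group. Both groups carry the knockout, and the age of the mice, the dose and length of treatment and any pooling of animals are not given in the sources used here. The question asked of these genes was how the agonists moved against the antagonist and the decoy receptor in DEK against vehicle. The list was proposed with differences between DEK and vehicle in these libraries already known, among them that of Il1b, so the values of that comparison are a description, the adjusted p-values included.

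IL-1 alpha and IL-1 beta signal through the receptor IL1R1 and its accessory chain, which recruit the adaptor MYD88 and activate NF-kB. The receptor antagonist binds IL1R1 without signalling, and the decoy receptor IL1R2 binds IL-1 but lacks a signalling domain. IL-1 beta and IL-18 are made as inactive precursors that caspase-1 cleaves within the inflammasome, an assembly of a sensor such as NLRP3 and the adaptor ASC, the product of Pycard. In bone marrow, monocytes and neutrophils are well-known sources of IL-1 beta, and IL-1 is known to drive progenitors towards myeloid output. Transcript levels do not show whether a precursor was cleaved or released.

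Depth ran from 34875736 to 49128378 counts per library. Both libraries numbered 3 stood apart: of their counts, 6.53% (vehicle) and 5.83% (DEK) fell on 11 measured of 12 neutrophil markers, while the shares in replicates 1 and 2 were 0.693 to 0.721% for vehicle and 0.656 to 0.876% for DEK. Stem and progenitor markers were present in every library, Kit with 5297 to 15034 counts, and so were markers of mature cells, such as the neutrophil gene S100a9 with 90533 to 1053441 counts. In bulk RNA, fewer cells of a type and less RNA per cell cannot be told apart. The labels do not say that libraries stem from separate animals, so p-values cannot be said to measure a spread between animals. Unpaired p-values measure the spread between these libraries within a group. Those fitted within replicate numbers measure how far the DEK minus vehicle differences vary between numbers. The libraries numbered 3 deviated together, and fold changes below are within equal numbers, called pairs, unless marked as unpaired. The labels do not give this pairing, which was taken from these same data, while the main fit was unpaired. Numbers 1 and 2 were not told apart. A gene's deviations from its group mean cancel out, so with number 3 apart in both groups, numbers 1 and 2 tend to correlate however they are paired. Deviations of DEK replicate 1 correlated by 0.55 with vehicle replicate 1 and 0.52 with vehicle replicate 2. For DEK replicate 2 these values were 0.41 and 0.56.

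The members fall into a few groups on the chromosomes (mm10, outer exon bounds). Il1a (chromosome 2, 129299610 to 129309972) and Il1b (129364580 to 129371120) are neighbours on the minus strand, 54.6 kb apart. Il1rn lies on the plus strand of the same chromosome, from 24336860 to 24351491. Il1r2 (chromosome 1, 40084768 to 40125226) and Il1r1 (40225080 to 40316177) follow each other on the plus strand with 99.9 kb between them. Casp1 (5298517 to 5307281) and Il18 (50565368 to 50581837) are both on the plus strand of chromosome 9 but far apart. Nlrp3 is on chromosome 11 (59542686 to 59566956, plus strand) and Pycard on chromosome 7 (127991373 to 127993867, minus strand). Exons of Il1a overlap those of Gm14023 on the opposite strand and the counting ignored strand, so the count of Il1a is uncertain. No other member shares exons with another gene of the table.

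The start-site regions of Il1b, Il1rn and Nlrp3 are shown because these 3 genes rose in the DEK libraries. RefSeq (GRCm38.p6, the assembly of mm10) gave 13 windows for the 9 members, each with 250 bases before and 50 after the start. The windows printed are chr2:129371090-129371389 (minus strand) for Il1b, chr2:24336610-24336909 for the upstream start of Il1rn, chr2:24345121-24345420 for a downstream start of Il1rn and chr11:59542436-59542735 for a start of Nlrp3 (these on the plus strand). Capitals mark matches to 5 motifs.
Il1b: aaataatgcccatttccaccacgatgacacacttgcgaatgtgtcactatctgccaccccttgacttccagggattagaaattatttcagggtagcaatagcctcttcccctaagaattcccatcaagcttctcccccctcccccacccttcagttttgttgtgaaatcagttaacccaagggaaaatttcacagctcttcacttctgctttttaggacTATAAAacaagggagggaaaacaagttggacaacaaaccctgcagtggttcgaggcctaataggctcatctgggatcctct
Il1rn upstream start: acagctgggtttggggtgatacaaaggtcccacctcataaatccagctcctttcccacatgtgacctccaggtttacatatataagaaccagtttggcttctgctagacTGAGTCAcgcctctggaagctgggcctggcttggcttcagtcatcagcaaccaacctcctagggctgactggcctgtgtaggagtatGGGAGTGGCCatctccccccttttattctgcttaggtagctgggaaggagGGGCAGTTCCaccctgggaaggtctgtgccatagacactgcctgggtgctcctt
Il1rn downstream start: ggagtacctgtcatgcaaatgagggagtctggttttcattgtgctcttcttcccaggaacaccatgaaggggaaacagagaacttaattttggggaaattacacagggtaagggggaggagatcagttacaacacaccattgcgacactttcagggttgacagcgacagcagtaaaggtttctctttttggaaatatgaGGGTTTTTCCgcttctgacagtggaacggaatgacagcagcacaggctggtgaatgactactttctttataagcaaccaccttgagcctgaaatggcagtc
Nlrp3: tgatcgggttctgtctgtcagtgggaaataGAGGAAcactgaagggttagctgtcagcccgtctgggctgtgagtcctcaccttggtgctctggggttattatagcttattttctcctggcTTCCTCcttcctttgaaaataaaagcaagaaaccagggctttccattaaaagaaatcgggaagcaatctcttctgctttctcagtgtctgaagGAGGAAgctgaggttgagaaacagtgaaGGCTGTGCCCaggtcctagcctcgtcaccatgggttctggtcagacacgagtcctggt

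The motifs searched were a loose NF-kB pattern, GGG and CC with 5 free bases between them, that 50.8% of the 32851 RefSeq windows hold, TGANTCA of AP-1 (7.81%), TTGCNNAA of C/EBP proteins (10.8%), GAGGAA of PU.1 (28.3%), each on both strands, and TATAAA on the gene's strand (8.32%). The Il1b window holds 1 match, a TATAAA that begins 31 bases before the start. The upstream window of Il1rn has NF-kB pattern matches at bases -54 and -4 and an AP-1 match at -141, and the downstream one has a single match, GGGTTTTTCC at -51. The printed Nlrp3 window has PU.1 matches at -220, -129 and -36 and an NF-kB pattern match at -8 on the opposite strand. RefSeq lists a second, upstream start of Nlrp3, whose window has GGGAACCCCC at -186, a match on both strands, and no PU.1 match. No motif occurs in all 4 printed windows, and a match is only a run of letters. Of the other members' windows, that of Il1a holds TATAAA at -32, as well as AP-1 and PU.1 matches at -12 and -41. Casp1 and the downstream window of Il1r1 hold NF-kB pattern matches too, at -158 and -232. PU.1 matches lie at -108 for Casp1 and -42 for Pycard. C/EBP matches lie at -133 in the upstream window of Il1r1 and at -142 for Pycard. The windows of Il1r2 and Il18 hold no match. Counts summed over a gene do not show which start of Il1rn or Nlrp3 was used.

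Within pairs, 3 of the 9 members rose with DEK (Il1b, Il1rn and Nlrp3), 0 fell and 6 did not pass an adjusted p of 0.05 (edgeR's quasi-likelihood test with the replicate number as a block). Of all 13803 genes tested, 0.869% were called higher and 0.413% lower, 1.28% in all. The median log2 fold change was 0.35 over the members and -0.0028 over all genes, and 7 of the 9 members were higher in 3 of 3 pairs, as were 16.3% of all genes. None was lower in 3 of 3, against 17.9% of all genes. In the unpaired fit, 0 of 9 passed with edgeR, DESeq2 or limma-voom (all genes: 0%, 0.441% and 0% called). In that order, 1, 2 and 1 members were at an unadjusted p under 0.05 (all genes: 2.61%, 3.15% and 2.54%). Leaving out any 1 library there left 0 of 9, with at most 0.00719% of all genes called (edgeR, without DEK replicate 3). The calls within pairs needed pair 2, since without it 0 of 9 members passed and 0% of all genes were called (edgeR). In that fit, 6 members and 4.82% of all genes were at an unadjusted p under 0.05 (edgeR). Without pair 1, 3 passed (1.3% of all genes). Without both libraries numbered 3, 3 of 9 rose in the fit within pairs and in the unpaired one (4.64% and 1.22% of all genes called), in each case Il1b, Il1rn and Nlrp3.

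**Figure D1:**
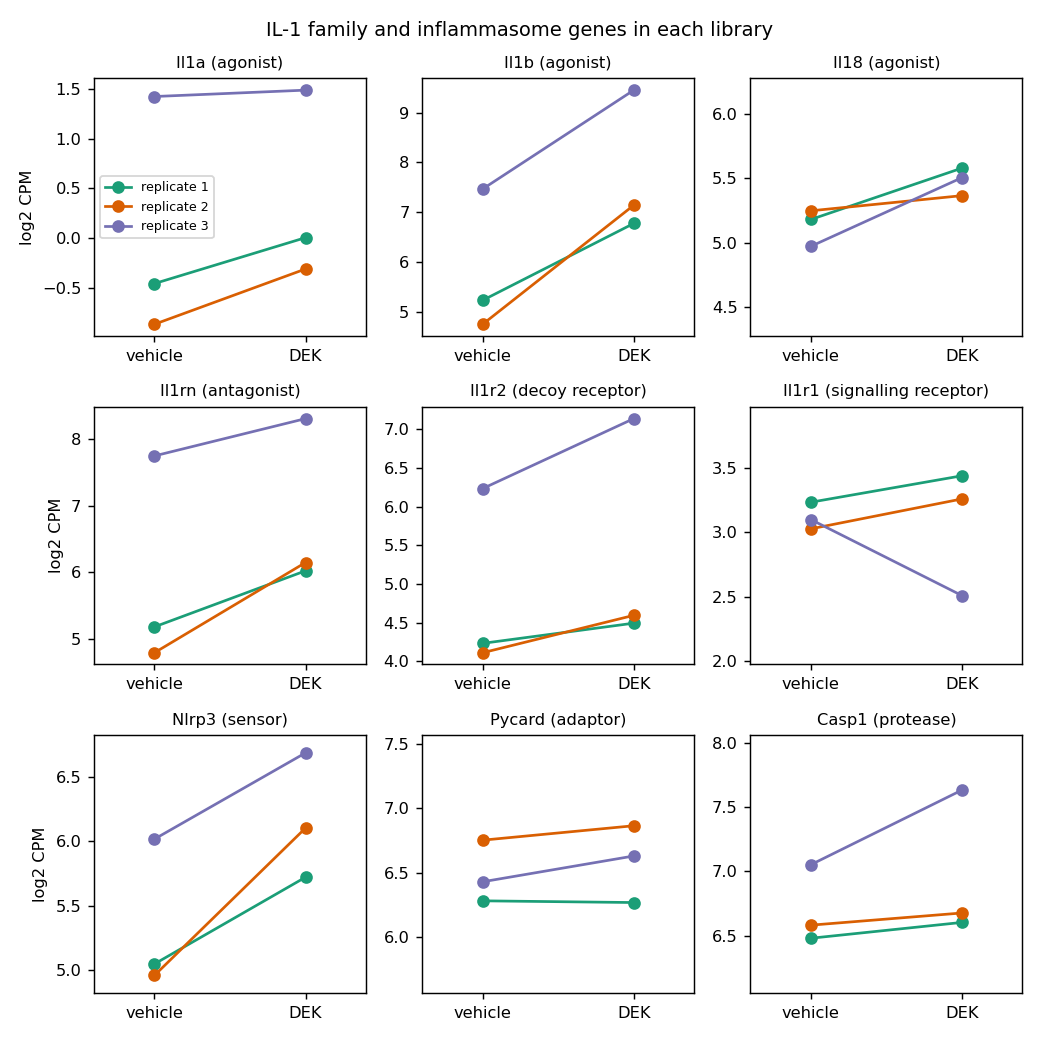
Level of each of the 9 genes in each library, as log2 CPM on the vertical axis, with 1 panel per gene and lines joining vehicle and DEK libraries of equal replicate number. Il1a, Il1b, Il1rn, Il1r2, Nlrp3 and Casp1 stand highest in the libraries numbered 3 of each group. The lines of Il1b, Il1rn and Nlrp3 climb in all 3 pairs, as do those of Il1a, Il1r2, Il18 and Casp1.

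Among the agonists, Il1b, which encodes the precursor of IL-1 beta, moved most. It stood at 37.6, 26.9 and 177 CPM (read counts as CPM, scaled between libraries) in vehicle replicates 1, 2 and 3, and at 109.5, 141 and 699.7 CPM in DEK replicates 1, 2 and 3. Each DEK library was above the vehicle library of its number, yet the groups overlapped, because vehicle replicate 3 exceeded DEK replicates 1 and 2. The fold change was 3.92 (log2 1.97 ± 0.16 SE, adjusted p = 0.00293, edgeR). Pairs 1, 2 and 3 gave log2 differences of 1.54, 2.39 and 1.98. The rise was as large without the libraries that stood apart, with a log2 fold change of 1.96 within pairs 1 and 2. Without pair 2 it was 1.78 (adjusted p = 0.0954, edgeR), and the unpaired value was 1.98 ± 1.02 SE. Leaving out 1 library unpaired moved it to 0.63 without DEK replicate 3 and 3.30 without vehicle replicate 3.

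Il1a, the gene of IL-1 alpha, was the scarcest member. Only 36, 22 and 90 counts were seen with vehicle and 45, 41 and 121 with DEK. At 0.730, 0.550 and 2.68 CPM with vehicle and 1.005, 0.808 and 2.80 CPM with DEK, it followed the replicate number more than the treatment. Its log2 fold change was 0.33 ± 0.30 SE (adjusted p = 0.729, edgeR), so a difference was not detectable at this depth. Il18, which encodes a cytokine that induces interferon gamma, showed the smallest differences between replicates of the 3 agonists. It had 36.3, 38.0 and 31.4 CPM with vehicle and 47.9, 41.3 and 45.5 CPM with DEK. All DEK libraries were thus above all vehicle libraries, the only member for which this held (3.78% of all genes). The fold change of Il18 was 1.27 (log2 0.35 ± 0.11 SE) and did not pass (adjusted p = 0.202, edgeR).

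The antagonist gene Il1rn rose along with Il1b, but by less. Its levels were 36.3, 27.8 and 214 CPM with vehicle and 65.0, 70.9 and 316 CPM with DEK. As with Il1b, every DEK library exceeded its vehicle counterpart while vehicle replicate 3 lay above DEK replicates 1 and 2. The fold change was 1.88 (log2 0.91 ± 0.15 SE, adjusted p = 0.0277, edgeR), and the pairs gave 0.84, 1.35 and 0.56. Leaving out pair 1 or pair 2 ended the call (log2 0.95, adjusted p = 0.106, and 0.71, adjusted p = 0.421, edgeR). In the unpaired fit Il1rn was at 0.70 ± 0.99 SE, and at -0.46 without DEK replicate 3 alone.

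Il1r2, the decoy receptor, did not pass (adjusted p = 0.0668, edgeR), with a log2 fold change of 0.56 ± 0.13 SE. It had 18.8, 17.3 and 75.3 CPM with vehicle and 22.5, 24.2 and 141 CPM with DEK. The difference was smallest in pair 1, at 0.26, and was 0.48 in pair 2 and 0.90 in pair 3. Il1r2 passed without pair 1 (log2 0.70, adjusted p = 0.0354, edgeR) and in DESeq2 with the block (adjusted p = 0.0131, 2.51% of all genes called), so its call depended on the pairs and the tool. Il1r1, the receptor that signals, was low and went both ways. It stood at 9.41, 8.15 and 8.57 CPM with vehicle and 10.9, 9.58 and 5.69 CPM with DEK. Pairs 1 and 2 gave log2 differences of 0.20 and 0.23 and pair 3 gave -0.59, for a log2 fold change of -0.04 ± 0.18 SE (adjusted p = 0.965, edgeR).

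**Figure D2:**
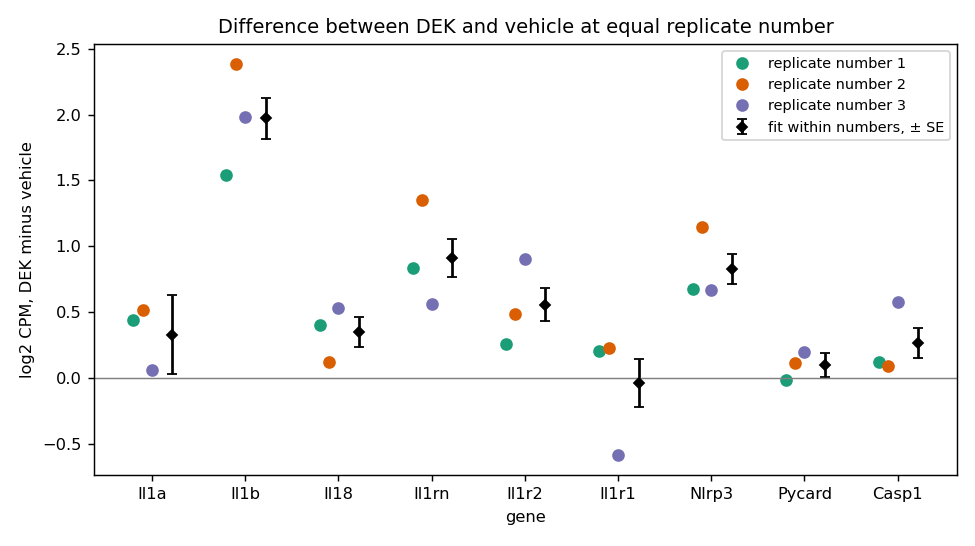
Difference in log2 CPM between the DEK and the vehicle library of each replicate number (coloured circles, vertical axis) for the 9 genes, with the log2 fold change fitted within numbers and its standard error (black diamonds). Il1b lies between 1.54 and 2.39 in the 3 pairs, Il1rn between 0.56 and 1.35, and Il1r1 has pairs on both sides of 0.

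Agonist and antagonist were set against each other as the ratio of reads per exon base within each library, which no scaling between libraries affects. The ratio of Il1b to Il1rn was 2.10, 1.96 and 1.67 in vehicle replicates 1, 2 and 3, and 3.41, 4.04 and 4.49 in DEK replicates 1, 2 and 3. The groups did not overlap, although each of these genes overlapped by itself. On the log2 scale the mean went from 0.93 ± 0.17 to 1.98 ± 0.20 (SD, n = 3 each), a difference of 1.06, or 2.08-fold, with pair values of 0.70, 1.04 and 1.43. Without both libraries numbered 3 the difference was 0.87. This shift of 1.06 is a description of genes chosen on this contrast and was not tested. How often ratios of other genes separate the groups was not counted.

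The other agonists did not gain on the antagonist. The ratio of Il1a to Il1rn was 0.0289, 0.0294 and 0.0174 with vehicle and 0.0220, 0.0163 and 0.0123 with DEK, lower in each pair. That of Il18 to Il1rn was 3.10, 4.25 and 0.456 with vehicle and 2.29, 1.81 and 0.448 with DEK. In both libraries numbered 3, Il18 had fewer reads per exon base than Il1rn, and in the other 4 it had more. Against the decoy receptor, Il1b was again higher: the ratio of Il1b to Il1r2 was 2.02, 1.58 and 2.38 with vehicle and 4.91, 5.91 and 5.03 with DEK. These did not overlap either, again with no count of other ratios to set beside them.

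For the receptors, the ratio of the decoy Il1r2 to the signalling Il1r1 was 7.47, 7.92 and 32.7 with vehicle and 7.76, 9.43 and 92.0 with DEK. Decoy transcripts therefore outnumbered those of the signalling receptor per exon base in all 6 libraries, by most in the libraries numbered 3. The DEK minus vehicle difference was 0.60 on the log2 scale but rested on DEK replicate 3. Pairs 1, 2 and 3 gave 0.06, 0.25 and 1.49. It was 0.15 without both libraries numbered 3 and -0.54 without DEK replicate 3 alone.

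**Figure D3:**
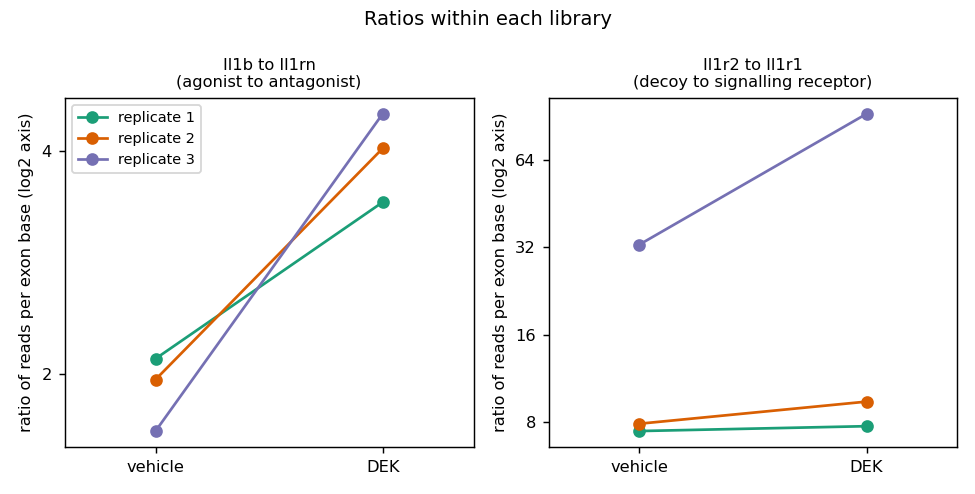
Ratio of reads per exon base within each library (vertical axes on a log2 scale) for Il1b to Il1rn on the left and Il1r2 to Il1r1 on the right, with lines joining libraries of equal replicate number. The left ratio is 1.67 to 2.10 with vehicle and 3.41 to 4.49 with DEK, and the right one stays between 7.47 and 9.43 outside the libraries numbered 3.

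Of the inflammasome genes, only the sensor gene Nlrp3 passed. Nlrp3 had 33.0, 31.1 and 64.7 CPM with vehicle and 52.7, 68.7 and 103 CPM with DEK, higher in each pair, with DEK replicate 1 below vehicle replicate 3. Its fold change was 1.78 (log2 0.83 ± 0.11 SE, adjusted p = 0.00599, edgeR), and the pairs gave 0.67, 1.14 and 0.67. Without pair 2 Nlrp3 did not pass (log2 0.68, adjusted p = 0.359, edgeR). Without pair 3 it was 0.91. Unpaired it was 0.80, and 0.49 without DEK replicate 3 or 1.22 without vehicle replicate 3.

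Casp1, the protease that cleaves both cytokine precursors, stood at 89.4, 95.9 and 133 CPM with vehicle and 97.3, 102 and 198 CPM with DEK. Its pairs gave 0.12, 0.09 and 0.58, so most of its log2 fold change of 0.27 ± 0.11 SE (adjusted p = 0.369, edgeR) came from pair 3. The adaptor gene Pycard had 77.7, 108 and 86.1 CPM with vehicle and 77.0, 116 and 98.9 CPM with DEK. That is a log2 fold change of 0.10 ± 0.09 SE (adjusted p = 0.736, edgeR), and the spread among replicates of Pycard exceeded any difference between the groups. The ratio of Nlrp3 to Pycard per exon base was 0.226, 0.153 and 0.399 with vehicle and 0.364, 0.313 and 0.552 with DEK. It was higher in each pair, by 0.69, 1.03 and 0.47 on the log2 scale, while the ratio of Casp1 to Pycard differed by 0.14, -0.02 and 0.38.

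On the RPKM scale, CPM divided by kilobases of exon, the order of levels with vehicle was Casp1 at 70.1 ± 15.5, Il1b at 60.6 ± 63.0, Pycard at 42.4 ± 7.25 and Il18 at 40.7 ± 3.96 (SD, n = 3). Then came Il1rn at 34.5 ± 39.1, Il1r2 at 27.6 ± 24.6, Nlrp3 at 10.7 ± 4.70, Il1r1 at 1.73 ± 0.127 and Il1a at 0.669 ± 0.598 RPKM. Neighbours from Casp1 down to Nlrp3 overlapped in their vehicle values, and the large spreads of Il1b, Il1rn and Il1r2 came from vehicle replicate 3. Nlrp3 lay above Il1r1, and Il1r1 above Il1a, in each vehicle library. With DEK, Il1b led at 239 ± 250 RPKM, ahead of Casp1 at 87.7 ± 37.7, and its single values were 82.5, 106 and 527. In each DEK library Il1b was above Casp1, whereas with vehicle this was so in replicate 3 only.

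The libraries numbered 3 differed from the others by more than DEK from vehicle for several members. Il1rn in replicate 3 exceeded the mean of replicates 1 and 2 on the log2 scale by 2.75 among vehicle and by 2.22 among DEK libraries, Il1b by 2.47 and 2.49, and Il1r2 by 2.06 and 2.59. Il1a was higher there too, by 2.00 and 1.59, and Nlrp3 by 1.01 and 0.77. Il18 (-0.24 and 0.03) and Pycard (-0.09 and 0.06) were close to the median of all genes (-0.01 and -0.02), and Il1r1 was at -0.03 with vehicle and -0.84 with DEK. These values rest on 1 library in each group.

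**Figure D4:**
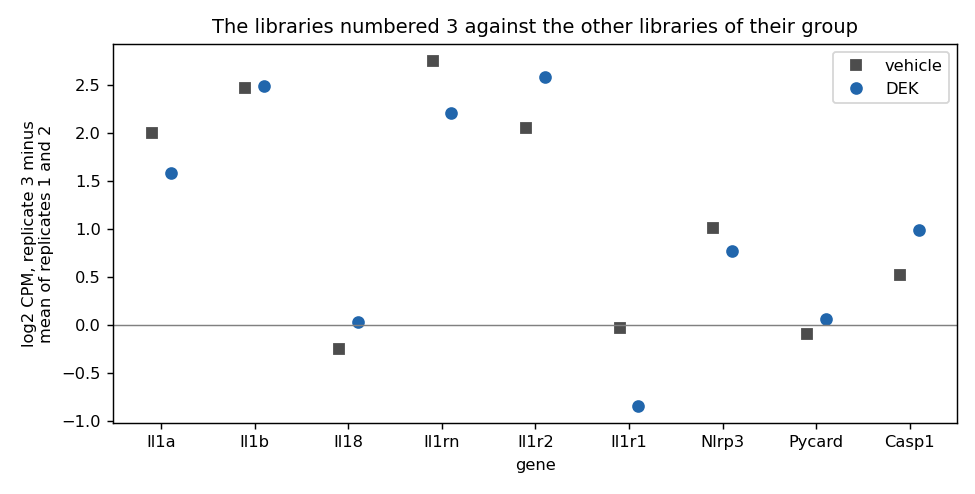
Log2 CPM in replicate 3 minus the mean of replicates 1 and 2 (vertical axis) for each gene, with squares for vehicle and circles for DEK. Il1a, Il1b, Il1rn and Il1r2 lie between 1.59 and 2.75 in both groups, and Il18 and Pycard lie near 0.

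Markers of cells that could supply these transcripts were summed beside them. The 11 neutrophil markers summed to 6600 to 67817 CPM over the vehicle libraries and 6348 to 64829 CPM over the DEK libraries. Their sum was higher with DEK in pair 1 and lower in pairs 2 and 3. Within pairs 1 of the 11 rose, Lcn2, which is also on the list of genes IL-1 induces. The median log2 fold change of the 11 was 0.09. The 7 monocyte markers summed to 5409 to 7161 CPM with vehicle and 6283 to 8189 CPM with DEK, higher in each pair, and 2 of 7 rose (median 0.33). Of 8 macrophage markers, 3 fell and 0 rose (median -1.01). Their sums were lower with DEK in each pair, at 798 to 1009 CPM with vehicle and 641 to 907 CPM with DEK. Of 7 eosinophil markers, 2 fell and 0 rose (median -0.47), and their sums were lower with DEK in each pair, at 4641 to 14207 CPM with vehicle and 3309 to 11122 CPM with DEK. The 6 mast cell and basophil markers had a median of -0.37, with 0 called. Their sums were 3242, 3325 and 1208 CPM with vehicle and 2443, 2123 and 1203 CPM with DEK, nearly equal in pair 3. Of all genes, 0.869% were called higher and 0.413% lower within pairs. None of the markers in these 5 lists was at 0. The part of these cell types in the rises of Il1b, Il1rn and Nlrp3 was not tested.

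By the likeness rule, the genes whose log2 CPM over the 6 libraries correlated best with that of Il1b were Lpcat2, a phospholipid acyltransferase gene (Pearson r = 0.997), Hexim1, an inhibitor of the elongation factor P-TEFb (0.996), the transcription factor gene Ets2 (0.995), Afmid (0.994) and Zmynd15 (0.989). Lpcat2 ranged from 86.8 to 250.04 CPM and Ets2 from 24.0 to 69.5 CPM, each lowest in vehicle replicate 2 and highest in DEK replicate 3, as was Il1b. Afmid and Zmynd15 share exons with Tk1 and Cxcl16 and are uncertain. Most like Il1rn were Fpr1, a formyl peptide receptor gene of neutrophils (0.998), Inpp1 (0.997), the IL-36 gamma gene Il1f9 (0.997), Arfgef1 (0.996) and Efnb3 (0.996). All these correlations are over the same 6 libraries, those numbered 3 included.

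The rest of the IL-1 pathway was read from 5 lists, of which 57 genes were tested. Within pairs 9 rose and 0 fell (all genes: 0.869% higher and 0.413% lower). In the unpaired fit 0 of 57 passed with edgeR (7 at an unadjusted p under 0.05), 0 with limma-voom (6) and 4 of 52 with DESeq2 (9). Of all genes, 0%, 0% and 0.441% were called in that order, and 2.61%, 2.54% and 3.15% were at an unadjusted p under 0.05. Leaving out pair 1, 2 or 3 left 7, 0 and 15 calls within pairs (edgeR, all genes: 1.3%, 0% and 4.64%). The 15 were 13 higher and 2 lower. Without pair 2, 17 of the 57 were at an unadjusted p under 0.05 (edgeR, all genes: 4.82%). So the calls of these genes too depended on pair 2.

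Of the 6 other ligands in the table, only Il1f9, which encodes IL-36 gamma, had enough reads to be tested. Il1f9 had 20.9, 13.2 and 165 CPM with vehicle and 38.0, 35.9 and 288 CPM with DEK. It rose 2.04-fold (log2 1.03 ± 0.13 SE, adjusted p = 0.00599, edgeR) and was high in both libraries numbered 3, like Il1rn. Without pair 2 its log2 fold change was 0.84 (adjusted p = 0.227, edgeR). The IL-33 gene Il33 had at most 3 counts in a library. Il1f6 had at most 2 counts, Il1f8 had 6 counts in DEK replicate 3 and none elsewhere, and Il1f5 and Il1f10 had 0 counts in all 6. A count of 0 allows up to 3 counts, or 0.0591 to 0.0893 CPM per library.

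Of the 7 other receptors and binding proteins tested, 0 rose and 0 fell (edgeR, median -0.05). An unadjusted p under 0.05 was reached by 1 of the 7 and by 11.5% of all genes (edgeR). Il1rl1, the receptor of IL-33, had a log2 fold change of -0.27 ± 0.11 SE (adjusted p = 0.336, edgeR), and was lower by the test within pairs 1 and 2 alone (-0.39, adjusted p = 0.0380, edgeR). Il1rap, the accessory chain, had one of -0.15 ± 0.11 SE (adjusted p = 0.658, edgeR). Exons of Il1rap overlap those of Gm20319, which leaves its value uncertain. Il18bp, a secreted inhibitor of IL-18 chosen after its values were seen, had 3.79, 4.30 and 42.7 CPM with vehicle and 2.66, 5.50 and 153 CPM with DEK. Its pairs went from -0.51 to 1.84, and it did not pass (adjusted p = 0.789, edgeR).

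Of 15 genes of receptor signalling, 1 rose and the median was 0.05. That gene was Myd88, the adaptor of IL-1 and Toll-like receptors, at 1.35-fold (log2 0.44 ± 0.09 SE, adjusted p = 0.0418, edgeR). It had 129, 142 and 174 CPM with vehicle and 163, 208 and 235 CPM with DEK, higher in each pair. Of 21 other inflammasome and pyroptosis genes, 1 rose and the median was 0.05. Casp4, the mouse caspase-11 that senses lipopolysaccharide inside cells, went from 31.9, 34.7 and 45.3 CPM to 44.6, 45.7 and 92.7 CPM. Its fold change was 1.56 (log2 0.64 ± 0.13 SE, adjusted p = 0.0421, edgeR). Without pair 1, neither Myd88 (adjusted p = 0.106) nor Casp4 (adjusted p = 0.105) passed with edgeR. The same held without pair 2 (edgeR, adjusted p = 0.751 for Myd88 and 0.486 for Casp4).

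Of the genes that IL-1 is known to induce, 6 of 13 tested rose and 0 fell, with a median of 0.71 (all genes: 0.869% higher and 0.413% lower). Cxcl1, Csf3 and Nos2 did not pass the filter on low counts. Saa3 and Il6 were picked out after their values were seen. Saa3 had the largest log2 fold change, 2.47 ± 0.58 SE, but did not pass (adjusted p = 0.394, edgeR), and Il6 was at -0.31. Icam1, an adhesion molecule that leukocytes bind, rose 2.12-fold (log2 1.08 ± 0.14 SE, adjusted p = 0.0107, edgeR), from 75.2, 63.5 and 51.5 CPM to 117, 162 and 123 CPM. The DEK libraries of Icam1 were all above the vehicle libraries, as were those of Nfkbia, Tnfaip3 and Saa3 (3.78% of all genes). For Icam1 the libraries numbered 3 did not stand out. Tnfaip3, Nfkbia and Nfkbiz, which encode regulators of NF-kB, had log2 fold changes of 0.76, 0.81 and 0.71. Exons of Nfkbia overlap Mir1198, which leaves its value uncertain. The other rises were those of Lcn2 and Ptgs2, at 0.66 and 1.71, and Lcn2 is also one of the neutrophil markers. Many of these genes answer to other stimuli as well, and the list was drawn up with results of these libraries known.

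**Figure D5:**
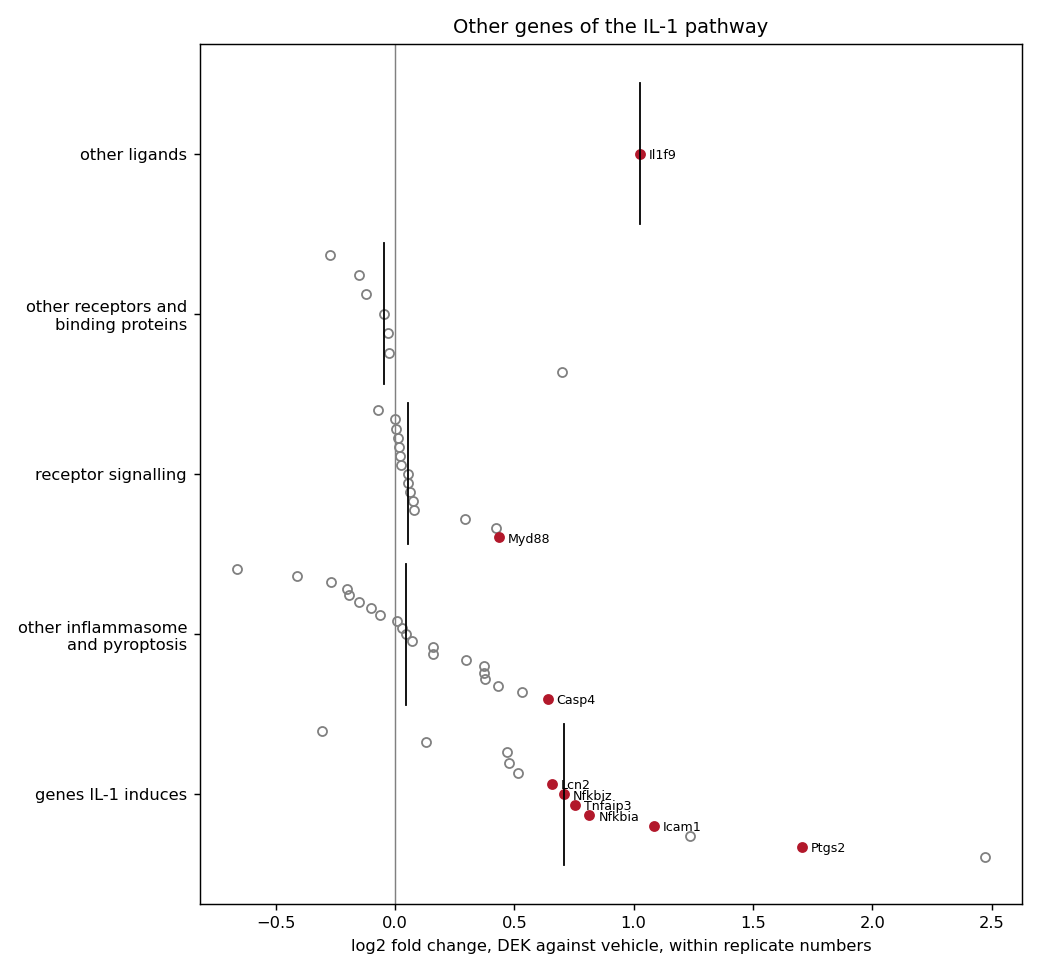
Log2 fold change of DEK against vehicle within replicate numbers (horizontal axis) for the 57 tested genes of the 5 pathway lists, with 1 point per gene, filled where it passed and named, and a bar at each list's median. The genes IL-1 induces have a median of 0.71, and the signalling and inflammasome lists have medians of 0.05.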

How the data were processed

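RNA was counted in 6 libraries, 3 per group, grouped by the titles in the labels. The authors deposited raw read counts per gene, made per the file headers with featureCounts 1.6.1 over exons on mm10 from 1 STAR alignment per library, with no option for strand or overlapping genes. Reads in exons of more than 1 gene were therefore not counted. The submitters' processing notes also name Trim Galore, HTSeq and edgeR. Per the labels' protocols the kit selects polyadenylated RNA and keeps strand.

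In R 4.3.3, filterByExpr kept 13803 of 18049 genes with a read, and edgeR 4.0.16 (TMM, robust quasi-likelihood, two-sided, Benjamini-Hochberg over all genes, threshold 0.05) was fitted without and with the replicate number as a block. DESeq2 1.42.0 and limma-voom 3.58.1 were alternatives. The fit was tested on simulated data. Each standard error is the log2 fold change over the root of its F statistic, log2 CPM and ratios use a prior count of 2, and RPKM divides CPM by the exon length in the table. Floors cover counting error only.

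Deviations from group means correlated by 0.55, 0.56 and 0.80 for equal numbers 1, 2 and 3, and the numbers were taken as pairs. Vehicle 2 with DEK 1 (0.52) and vehicle 1 with DEK 2 (0.41) also correlated. A gene's deviations from its group mean cancel out, so with number 3 apart in both groups, numbers 1 and 2 tend to correlate however they are paired. These values therefore match the libraries numbered 3 but cannot show that 1 pairs with 1 and 2 with 2. The labels do not say what equal numbers share.

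Members and lists were chosen with earlier results of these data known. Named were the 9 members, up to 4 called genes per list by p within pairs or else the 2 smallest p, and the 5 genes most like Il1b and Il1rn with a mean of at least 1 CPM.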

Additional observations from a re-analysis of the deposited data

How the results depend on the processing

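No member passed in the unpaired fit with edgeR, and none did with RLE scaling, DESeq2, limma-voom, no filter on low counts or any 1 library left out. With the replicate number as a block, 3 of 9 passed by edgeR and 4 by DESeq2, or 0 to 3 over the fits that leave out 1 library or pair, and 3 passed without both libraries numbered 3, a setting chosen after seeing the data. For the 57 pathway genes the unpaired count of 0 became 4 with DESeq2, 9 with the replicate block, 14 with the block in DESeq2, 0 to 15 over the fits with 1 library or pair left out (7 without pair 1, and without pair 3 13 higher and 2 lower), and 6 without both libraries numbered 3 (5 higher, 1 lower). The block on all 6 libraries changed no call of a named gene beyond those given, and without pair 3 it also called Il1rl1 lower (-0.39). The Il1b to Il1rn difference of 1.06 was 0.96 to 1.16 with 1 library left out and 0.87 without both numbered 3, and that of Il1r2 to Il1r1, 0.60, was -0.54 to 1.30 with 1 left out. Both equal the mean over pairs by arithmetic, since each number has 1 library per group, so this is no check. Signs that changed were all of values that did not pass there. With 1 library or pair left out, log2 fold changes, the negative ones without DEK replicate 3 except where said, ran from -0.54 to 1.26 for Il1a (negative also without vehicle replicate 1 or 2), -0.46 to 2.23 for Il1rn, -0.19 to 0.23 for Il1r1 (above 0 without vehicle replicate 1, DEK replicate 3 or pair 3), -0.67 to 1.79 for Il1r2, -0.091 to 0.52 for Casp1, -0.042 to 0.25 for Pycard (negative without DEK replicate 2), -0.85 to 2.82 for Il1f9 and -0.048 to 1.47 for Nfkbiz. Il1r1 was 0.0065 with no filter on low counts and 0.22 without both libraries numbered 3. The cause was not tested. Il1b, Il18 and Nlrp3 stayed above 0 in all 16 alternatives, Il1b at 0.63 to 3.30, Il18 at 0.26 to 0.48 and Nlrp3 at 0.49 to 1.22. Low counts limit Il1a, at 22 to 121 per library.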
